A study of Bos taurus with 48 samples.

Results

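Interleukin 8 (IL8, ENSBTAG00000019716), CXCL5 (ENSBTAG00000009812) and PPBP (ENSBTAG00000032425) are 3 of the 25669 genes counted in bovine blood leukocytes by RNA-seq. They were taken by these identifiers, and no measured value was used to choose them here, although they were known from earlier results of these samples. The samples came from 12 intact male beef calves, which the labels call Continental and the study's methods call Simmental. All had been vaccinated and had grazed with their dams, and all were moved indoors on d 0. The 6 weaned calves were abruptly separated from the dam at housing and penned with other weaned calves, whereas the 6 control calves were penned with their dams. Each calf gave 1 library of total leukocytes before housing on d 0 and 1 on each of d 1, 2 and 7, which made 48 libraries in 8 groups of 6. Weaning and penning with unfamiliar calves therefore cannot be told apart, and there was no unhoused group.

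The 3 genes encode CXC chemokines of the ELR type. These secreted proteins bind the receptor CXCR2 on neutrophils and draw the cells out of the blood towards inflamed tissue. IL8, also written CXCL8, is made by monocytes, neutrophils, epithelium and many other cells soon after signals of the NF-kappa B pathway such as IL1 and TNF. CXCL5 is best known as a product of epithelial cells and of platelets. PPBP, the platelet basic protein or CXCL7, is stored in the granules of platelets and cut by proteases to a neutrophil attractant, so that its mRNA in blood comes mainly from platelets and their precursors. In the RefSeq annotation of the ARS-UCD2.0 assembly the genes stand close together on chromosome 6, where CXCL8 is followed by LOC534181, CXCL5, PPBP and the platelet chemokine PF4, and then by CXCL2, CXCL3 and GRO1. That table lists CXCL6 and GCP-2 as other names of CXCL5. The deposited counts were made on Btau4.0, so only the order of the genes was taken from this newer assembly, and the genes were matched to it by symbol, since the table holds no Ensembl identifiers. Whether ENSBTAG00000009812 is the gene that RefSeq calls CXCL5 was not checked.

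All 3 transcripts were scarce. Total counts per library lay between 1662995 and 4256011, and levels are given as CPM, the count of a gene relative to the size of its library, scaled by the trimmed mean of M-values (TMM). A count of 3, taken as the floor below which a value cannot be told from none, corresponded to 0.686 to 2.08 CPM, for counting error only. IL8 had 238 counts over the 48 libraries, was at 0 in 7 of them and at 3 counts or fewer in 30. CXCL5 had 72 counts, was at 0 in 22 libraries and at or under the floor in 45. PPBP had 487 counts, was detected in every library and was at or under the floor in 13. The 4 libraries with most counts of a gene held 41.2% of all IL8 counts, 52.8% of all CXCL5 counts and 39.2% of all PPBP counts. Scarce and unevenly spread counts of this kind limit every comparison that follows.

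IL8 was low in the weaned calves before housing, with 2 to 4 counts each and 1 calf above the floor. Such counts are too few to show how even the calves were. The highest values of IL8 were those of a few weaned calves afterwards. On d 0 the weaned calves lay between 0.543 and 0.915 CPM with a median of 0.625, and the control calves between 0 and 2.88 CPM with a median of 0.997. On d 1 the lowest weaned calf was at 0.267 CPM, the median at 1.81 and the highest at 7.86. The control calves on d 1 ran from 0 through a median of 0.551 to 2.45 CPM. Weaned calves 1758, 1770 and 1773 were above every control calf on d 1, at 2.84, 4.49 and 7.86 CPM from 12, 18 and 30 counts. The other 3 weaned calves, with 1 to 3 counts, lay within the range of the controls.

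On d 2 a single weaned calf carried the IL8 signal. Calf 1758 was at 8.73 CPM, from 37 counts with an exact 95% counting interval of 26.1 to 51.0 counts, the highest value of the gene in the 48 libraries. The weaned median on d 2 was 0.876 CPM, and 2 weaned calves, among them 1770, were at 0. The control calves ran from 0.276 to 2.08 CPM on d 2 with a median of 0.381, all from 1 to 3 counts, and calf 1773 had come down to 1.38 CPM. On d 7 the weaned calves lay between 0.314 and 3.49 CPM with a median of 1.49, and the control calves between 0 and 3.60 CPM with a median of 0.859. Calf 1758 was again the highest weaned calf on d 7, but the groups overlapped throughout, and the highest value of that day was that of control calf 1759, at 3.60 CPM from 6 counts.

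PPBP was present in every calf and was marked out by 1 library. On d 0 the weaned calves lay between 0.995 and 5.26 CPM with a median of 2.40, and the control calves between 0.564 and 5.20 with a median of 3.06. On d 1 the weaned calves ran from 0.249 to 29.0 CPM around a median of 1.78, close to the control median of 1.50, while the control calves ran from 0.855 to 2.66 CPM. The value of 29.0 CPM belonged to calf 1769 and came from 113 counts, with an exact 95% counting interval of 93.1 to 136 counts. The next weaned calf on d 1 was 1773 at 7.07 CPM, and calf 1770, which was high in IL8, had the lowest PPBP value of the 48 libraries at 1 count. On d 2 the weaned range was 0.944 to 5.54 CPM and the control range 0.576 to 3.79 CPM, and on d 7 they were 0.804 to 2.97 and 0.541 to 9.80 CPM. The control value of 9.80 CPM on d 7 was that of calf 1789, from 28 counts, and was the second highest of the 48 libraries.

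CXCL5 was near the limit of detection in nearly all libraries, with 3 above the floor. These were weaned calf 1769 on d 1 with 21 counts at 5.40 CPM, weaned calf 1770 on d 1 with 8 counts at 1.99 CPM, and control calf 1789 on d 7 with 6 counts at 2.10 CPM. The 6 weaned libraries together had 6, 33, 7 and 4 counts on d 0, 1, 2 and 7, and the 6 control libraries had 2, 6, 3 and 11. Of the 33 counts of the weaned calves on d 1, 63.6% came from calf 1769. Calf 1803 had no CXCL5 count on any day.

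**Figure D1:**
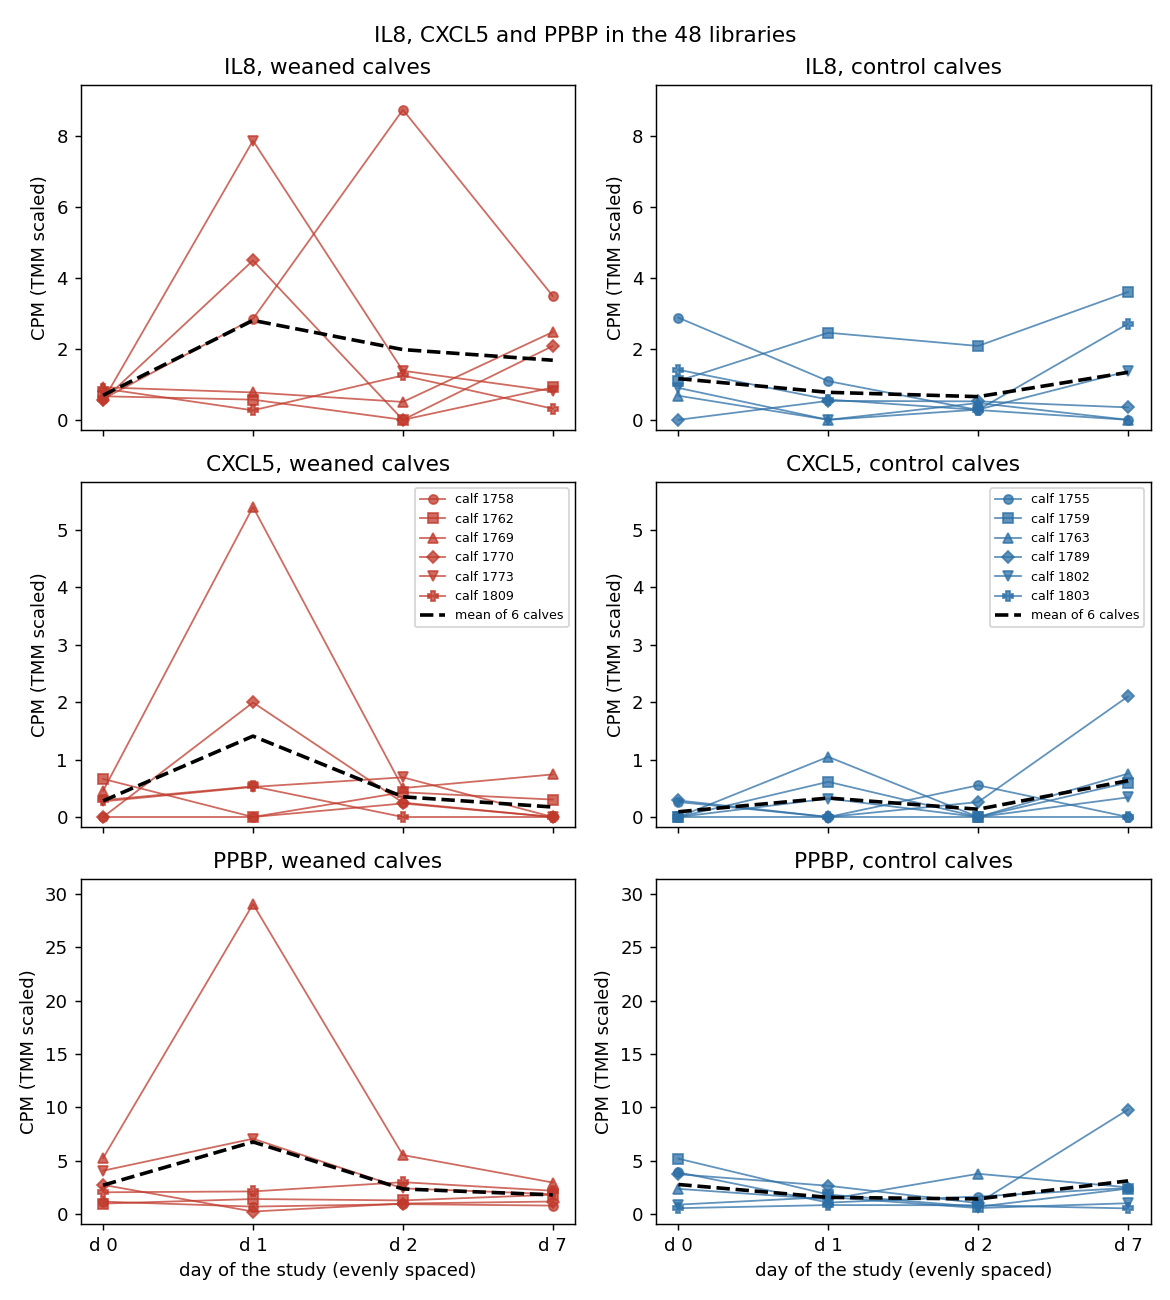
Level of each gene in CPM (vertical axis, linear, 1 scale per gene) on d 0, 1, 2 and 7 (horizontal axis, evenly spaced) in the 6 weaned (left, red) and 6 control calves (right, blue), with 1 line per calf and the mean of 6 calves dashed. IL8 peaked in calves 1758, 1770 and 1773, at 8.73, 4.49 and 7.86 CPM, whereas PPBP and CXCL5 peaked in calf 1769 on d 1, at 29.0 and 5.40 CPM.

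The question of the study was how weaning at housing alters leukocyte transcripts relative to housing alone. On d 1 all 3 chemokines had higher means in weaned than in control calves. The study had itself listed all 3 as up-regulated in weaned calves on d 1 from these same libraries. Their shared direction on d 1 is therefore not independent evidence. IL8 averaged 2.80 ± 2.96 CPM (SD, n = 6) in weaned against 0.774 ± 0.918 CPM (n = 6) in control calves. PPBP averaged 6.77 ± 11.2 CPM against 1.57 ± 0.639 CPM, and CXCL5 1.41 ± 2.09 CPM against 0.330 ± 0.429 CPM. In each weaned group the SD was larger than the mean. In edgeR's quasi-likelihood F-test, the log2 change was 1.78 (SE 0.83) for IL8 and 2.04 (SE 0.87) for PPBP, both with a Benjamini-Hochberg adjusted p of 0.959 over 14078 genes. For CXCL5 the fitted log2 change was 2.07 (SE 1.07, adjusted p = 0.959), and the summed counts, 33 against 6, gave a ratio of 4.78 with an exact 95% counting interval of 1.98 to 14.0. That interval covers counting error and not the spread between calves.

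No member was called on d 1, where a call required a 2-fold change besides an adjusted p under 0.05, and the share of all genes called was 0%. Before adjustment, IL8 and PPBP had p values under 0.05 in that test and CXCL5 did not, where 3.01% of all genes tested were under 0.05. Exact two-sided permutation tests of log2(CPM + 1), over all 924 ways to label the calves, gave differences of 0.87 for IL8 (p = 0.132), 0.66 for PPBP (p = 0.433) and 0.56 for CXCL5 (p = 0.284). None of these p values was under 0.05. The permutation tests therefore did not separate the treatments on d 1, which does not show that the treatments were alike. edgeR's exact test with 1 dispersion common to all genes takes no account of how far the single gene varied between calves. It called IL8 (adjusted p = 0.0318) and PPBP (adjusted p = 8.08e-05) on d 1. The estimated biological coefficient of variation was 0.915 for IL8, 0.937 for PPBP and 1.19 for CXCL5, against 0.489, 0.450 and 0.510 for genes of similar abundance.

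Single calves weighed on the size of these changes, most for PPBP and CXCL5. Without calf 1769 the PPBP change on d 1 was 0.52 on the log2 scale (adjusted p = 0.950) and that of CXCL5 was 0.93 (adjusted p = 0.950). Without calf 1773 the IL8 change on d 1 was 1.16 (adjusted p = 1.00), the lowest value with each of the 12 calves left out in turn. The highest of these IL8 values was 2.50. The counts of the 6 weaned libraries on d 1 differed by 73.1 times the counting noise for PPBP, 12.1 times for CXCL5 and 11.3 times for IL8 (chi-square per degree of freedom), against 1.05, 1.86 and 3.57 times for the 6 control libraries. Libraries were spread over 8 flowcells according to the lane table of the study, in which the bleed numbers were taken as d 0, 1, 2 and 7 in order, a reading that the table does not spell out. With flowcell as a block the d 1 change was 2.46 (adjusted p = 0.362) for IL8, 1.02 (adjusted p = 0.608) for PPBP and 1.64 (adjusted p = 0.433) for CXCL5. On d 1, 4 flowcells held a weaned and a control library, and IL8 was higher in the weaned one in 4 of 4, PPBP in 2 of 4 and CXCL5 in 3 of 4.

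**Figure D2:**
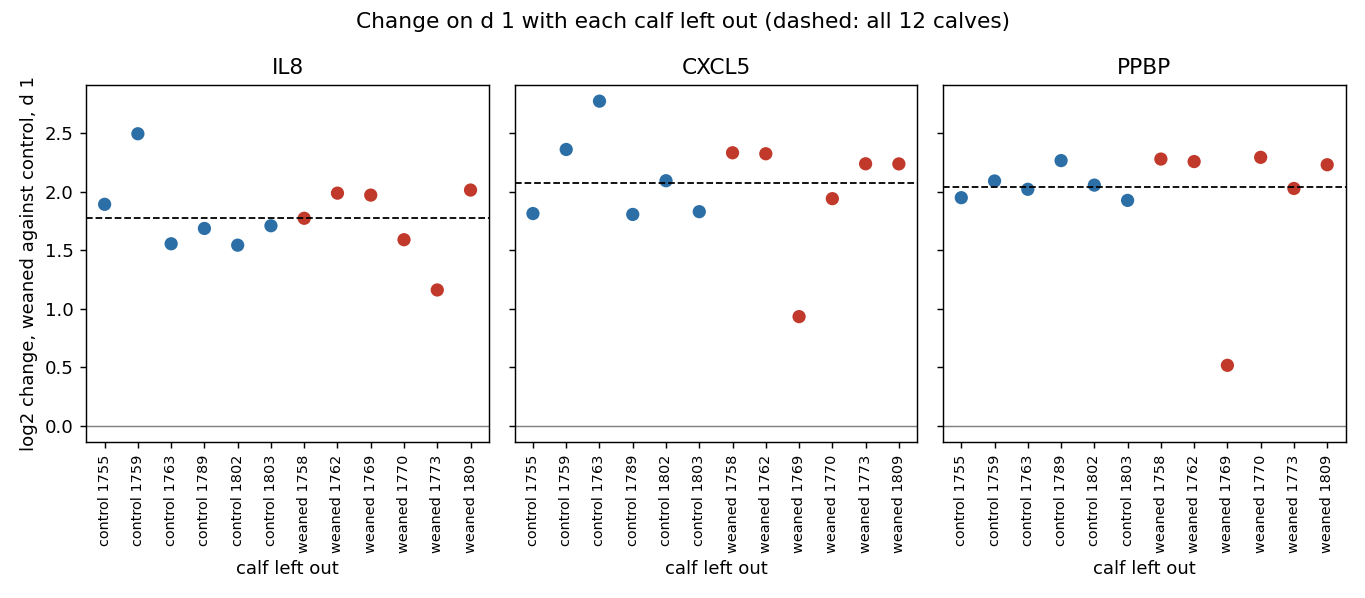
Log2 change of weaned against control calves on d 1 from edgeR (vertical axis) with each of the 12 calves left out in turn (horizontal axis; red weaned, blue control), beside the value with all calves (dashed). The PPBP change was 2.04 with all calves and 0.52 without calf 1769, and the IL8 change was 1.78 with all calves and 1.16 without calf 1773.

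On the other days the treatments differed less, or in 1 calf. On d 0, before housing, IL8 was at 0.690 ± 0.167 CPM in weaned and 1.16 ± 0.965 CPM in control calves, with a log2 change of -0.72 (SE 0.56, adjusted p = 0.631). PPBP was at 2.72 ± 1.68 and 2.78 ± 1.83 CPM before housing, and the fitted log2 difference was 0.00 (SE 0.48, adjusted p = 0.997). CXCL5 had too few counts on d 0 to enter the edgeR test, and on d 2 no library was above the floor, so no fold is given for either day. On d 2 IL8 averaged 1.98 ± 3.36 CPM in weaned and 0.652 ± 0.707 CPM in control calves. The log2 change, 1.90 (SE 0.95, adjusted p = 0.950), was 0.30 (adjusted p = 1.00) without calf 1758. With flowcell as a block the IL8 change on d 2 was -0.52 (adjusted p = 1.00), and in the 4 flowcells with both treatments IL8 was higher in the weaned library in 2 and lower in 2. These flowcells held 8 libraries, and only those bear on the blocked change. The largest IL8 difference within them was 0.90 on the log2(CPM + 1) scale, too small for calf 1758 to be among them. The blocked change therefore left out that calf too, and is not a separate check. PPBP differed by 0.66 (SE 0.55, adjusted p = 0.950) on d 2.

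On d 7 the log2 change of weaned against control calves was 0.46 (SE 0.74, adjusted p = 0.687) for IL8 and -0.76 (SE 0.56, adjusted p = 0.371) for PPBP. The PPBP change was 0.05 (adjusted p = 0.961) without control calf 1789 and -0.016 (adjusted p = 0.991) with flowcell as a block. These are not separate checks. In the 4 flowcells with both treatments, PPBP differences ran from -0.94 to 0.90 on the log2(CPM + 1) scale. Calf 1789, at 9.80 CPM, lay farther than that from every weaned calf. It therefore shared no flowcell with a weaned calf of d 7 and did not inform the blocked change. The summed CXCL5 counts of d 7 were 4 for the weaned and 11 for the control libraries, a ratio of 0.306 with an exact 95% counting interval of 0.0711 to 1.03. The fitted change was -1.56 (SE 0.99, adjusted p = 0.300), and -0.28 (adjusted p = 0.901) with flowcell as a block. Calf 1789, with 6 of the 11 control counts, did not inform that blocked change either. Neither the members nor any other gene was called on d 0, 2 or 7, a share of 0% each, while 6.23%, 3.37% and 25.5% of genes had an unadjusted p under 0.05. None of the members was among these on those days.

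The course within weaned calves showed IL8 above its own pre-housing level in part of the animals. IL8 was higher on d 1 than on d 0 in 3 of 6 weaned calves, going from 0.587 to 2.84 CPM in calf 1758, from 0.549 to 4.49 CPM in calf 1770 and from 0.543 to 7.86 CPM in calf 1773. It was lower in CPM on d 1 in calves 1762, 1769 and 1809, which went from 2 to 2, 4 to 3 and 3 to 1 counts, around the floor. The log2 change was 1.94 (SE 0.68, adjusted p = 0.423) in edgeR, with an unadjusted p of 0.0112, beside 0% of genes called and 10.4% with an unadjusted p under 0.05. Without calf 1773 it was 1.26 (adjusted p = 0.828), and the unadjusted p was 0.0762. Here and in the next 2 paragraphs the edgeR fits did not pair the libraries of a calf, unless calf is named as replicate block. With calf as replicate block the IL8 change on d 1 was 1.70 (adjusted p = 0.153). That edgeR fit called 2 of 14038 genes, IL8 not among them, and gave 3520 an unadjusted p under 0.05. The exact permutation test over the 64 sets of signs gave a mean change of 0.81 (p = 0.25). On d 2 the IL8 change from d 0 was 1.53 (SE 0.86, adjusted p = 0.944), while 2.11% of genes had an unadjusted p under 0.05. It was -0.16 without calf 1758 and 0.81 with calf as replicate block. On d 7 IL8 was above d 0 in 5 of 6 weaned calves, but in calves 1762 and 1773 it went from 2 to 3 counts, at or under the floor on both days. The log2 change was 1.24 (SE 0.50, adjusted p = 0.920, unadjusted p = 0.0264) in edgeR, beside 2.65% of genes with an unadjusted p under 0.05. With calf as replicate block it was 1.12 (unadjusted p = 0.0535). The exact permutation test gave a mean change of 0.54 (p = 0.156).

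PPBP and CXCL5 were higher on d 1 than on d 0 in weaned calves mainly through calf 1769. Over the 4 days of that calf PPBP was at 5.26, 29.0, 5.54 and 2.97 CPM, and CXCL5 at 0.457, 5.40, 0.504 and 0.741 CPM. The PPBP change from d 0 to d 1 over the 6 weaned calves was 1.24 (SE 0.82, adjusted p = 0.447) on the log2 scale and 0.02 (adjusted p = 0.986) without calf 1769. With calf as replicate block it was 0.66 (adjusted p = 0.397). CXCL5 had 33 counts on d 1 against 6 on d 0, a ratio of 5.10 with an exact 95% counting interval of 2.11 to 14.9 and a fitted change of 2.19 (SE 0.99, adjusted p = 0.423). Without calf 1769 that change was 1.27 (adjusted p = 0.459). PPBP was lower on d 2 and d 7 than on d 0, by log2 changes of -0.22 (SE 0.50, adjusted p = 0.951) and -0.61 (SE 0.43, adjusted p = 0.920), and CXCL5 stayed at or under the floor on d 0, 2 and 7.

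In control calves, which were housed without weaning, IL8 and PPBP had lower means on d 1 and d 2 than on d 0. The IL8 change was -0.56 (SE 0.77, adjusted p = 0.999) on d 1 and -1.13 (SE 0.67, adjusted p = 0.625) on d 2, and the PPBP change was -0.81 (SE 0.49, adjusted p = 0.999) and -0.86 (SE 0.54, adjusted p = 0.625). Each was lower than on d 0 in 4 of 6 control calves on both days. No gene was called on these days, and 0.768% and 5.09% of genes, with no member among them, had an unadjusted p under 0.05. On d 7 IL8 (0.07, SE 0.78, adjusted p = 0.955) and PPBP (0.16, SE 0.58, adjusted p = 0.849) were near their d 0 levels. CXCL5 had 11 counts on d 7 against 2 on d 0, a ratio of 6.36 with an exact 95% counting interval of 1.39 to 59.1 and a fitted change of 2.31 (SE 0.99, adjusted p = 0.0925). This was the comparison in which many other genes were called, 516 of 13829 or 3.73%, and no member was among them, but 11 were called with flowcell as a block and 1 with all 48 libraries in 1 fit. An unadjusted p under 0.05, as CXCL5 had with 0.0302, was found for 40.1% of the genes.

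Whether the change from d 0 differed between weaned and control calves was tested by the interaction of treatment and day, with each calf as its own baseline. For IL8 the interaction on d 1 was 2.29 (SE 0.96) on the log2 scale, with an adjusted p of 0.203 over 14786 genes and an unadjusted p of 0.0291, beside 0% of genes called and 22.3% with an unadjusted p under 0.05. It was 1.82 (SE 1.13, adjusted p = 0.505) on d 2 and 1.09 (SE 0.95, adjusted p = 0.403) on d 7, days on which 7.2% and 35.8% of genes but no member had an unadjusted p under 0.05. Without calf 1758 the IL8 value of d 2 was 0.72, and without control calf 1755 that of d 7 was 0.35. For PPBP it was 1.44 (SE 0.71, adjusted p = 0.233), 0.59 (SE 0.58, adjusted p = 0.604) and -0.60 (SE 0.54, adjusted p = 0.413), where the first was 0.63 without calf 1769. For CXCL5 it was poorly determined on d 1, at 0.81 with an SE of 2.41, and was -2.83 (SE 1.41, adjusted p = 0.157) on d 7. The exact permutation of calf labels gave differences in change of 1.12 for IL8 on d 1 (p = 0.0931) and -0.61 for CXCL5 on d 7 (p = 0.0346). The latter was the only one of 42 permutation tests of the 3 genes with a p under 0.05, its 12 weaned libraries were all at or under the floor, and leaving out any of 9 of the 12 calves took its p over 0.05.

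**Figure D3:**
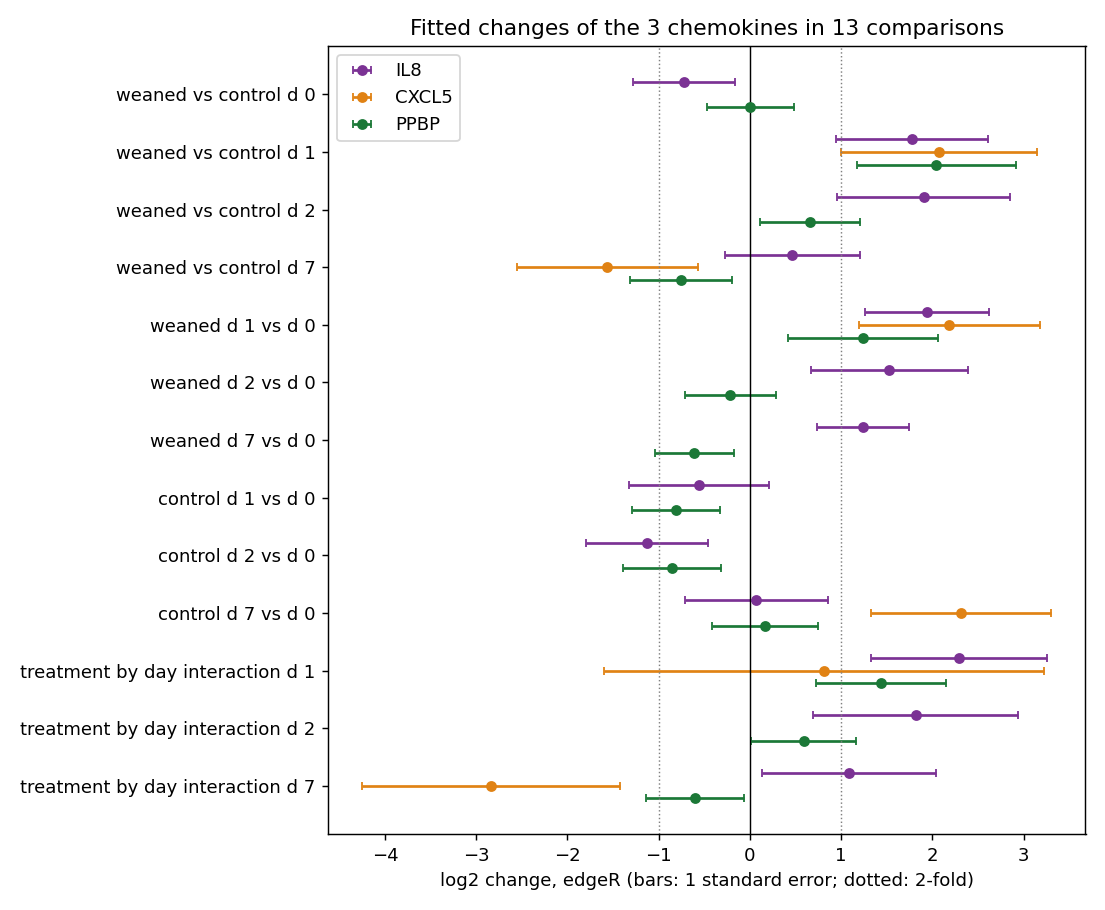
Log2 change from edgeR (horizontal axis, with bars of 1 SE and dotted lines at 2-fold) of IL8, CXCL5 and PPBP in the 10 comparisons of groups and the 3 interactions (vertical axis); CXCL5 is left out where it had too few counts or no library was above 3 counts. The d 1 changes of weaned calves lay near 2 with long error bars, 1.78, 2.07 and 2.04 against control calves, and no change was called.

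Over the whole course, as the mean of d 1, 2 and 7 minus d 0 in each calf, IL8 differed from d 0 by 0.55 ± 0.82 (SD, n = 6) in weaned and by -0.23 ± 0.82 (n = 6) in control calves on the log2(CPM + 1) scale. The difference was 0.78 (p = 0.134, exact permutation). PPBP differed by -0.09 ± 0.58 and -0.34 ± 0.60 (difference 0.25, exact permutation p = 0.485), and CXCL5 by 0.18 ± 0.47 and 0.25 ± 0.28 (difference -0.08, exact permutation p = 0.742). The differences were within the SD of the calves for all 3 genes. Once the group means were taken off, 61.2% of the remaining variation of PPBP on that scale lay between calves, 39.5% for IL8 and 35.1% for CXCL5, where the degrees of freedom alone would put 25%. Calf 1769 was the highest weaned calf for PPBP on all 4 days.

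IL8 and PPBP differed in their highest library, whereas PPBP and CXCL5 shared their 2 highest. Over the 48 libraries, Pearson's r of log2(CPM + 1) was 0.03 for IL8 with CXCL5 and -0.10 for IL8 with PPBP (Spearman's rho -0.05 and -0.16). For CXCL5 with PPBP it was 0.54 (rho 0.33), and 0.10 without the 2 libraries farthest from the CXCL5 median. These values are descriptions, since the libraries come in sets of 4 from a calf and share depth and cell make-up. The library of calf 1769 on d 1, first of 48 for PPBP and for CXCL5, was in the middle for IL8, at 0.771 CPM from 3 counts. The library of calf 1758 on d 2, first for IL8, had 4 PPBP counts and 1 CXCL5 count. Further down, the library of calf 1773 on d 1 ranked 2 of 48 for IL8 and 3 for PPBP, and that of calf 1770 on d 1 ranked 3 for IL8 and for CXCL5.

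The genes most like each chemokine were sought among 11071 genes with at least 10 counts per library on average, of which 341 had a symbol. For IL8 the 5 named genes with the highest r were MS4A2 (0.69), RGS2 (0.69), SUV39H2 (0.68), CENPJ (0.65) and CPA3 (0.65). MS4A2 is the beta chain of the high-affinity IgE receptor and CPA3 the carboxypeptidase of mast cells and basophils, while RGS2 dampens G protein signalling. Without the 2 libraries farthest from the IL8 median, r was 0.59 for MS4A2 and 0.64 for RGS2, and rho over the 48 libraries was 0.61 and 0.65. Calf 1758 was first of 48 for MS4A2 on d 7, at 22.8 CPM against a median of 2.93 CPM, and calf 1773 on d 1 was next at 12.05 CPM.

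For PPBP the most like named genes were TAC3 (r = 0.69), SELP (0.59), ALAS2 (0.55), CLU (0.54) and TGM2 (0.49). For CXCL5 they were SELP (0.60), PPBP (0.54), ALAS2 (0.50), HBB (0.47) and CLU (0.44). SELP, or P-selectin, is an adhesion molecule of platelet granules, ALAS2 and HBB serve haemoglobin synthesis in erythroid cells, and TAC3 encodes the neurokinin B precursor. The libraries of weaned calf 1769 on d 1 and control calf 1789 on d 7 were the 2 highest of 48 for PPBP, CXCL5, SELP, HBB, TAC3, CLU and TGM2. SELP was at 44.7 and 43.7 CPM in them against a median of 9.27 CPM, and TAC3 at 31.9 and 34.6 against 4.51 CPM. Without the 2 libraries farthest from the median of the member, r was 0.25 for PPBP with SELP, 0.19 for CXCL5 with SELP and 0.54 for PPBP with TAC3, so that the likeness to SELP rested on those libraries. A symbol was known only for genes that the study had itself placed in a pathway or a list of changed genes, so other like genes stay unnamed.

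**Figure D4:**
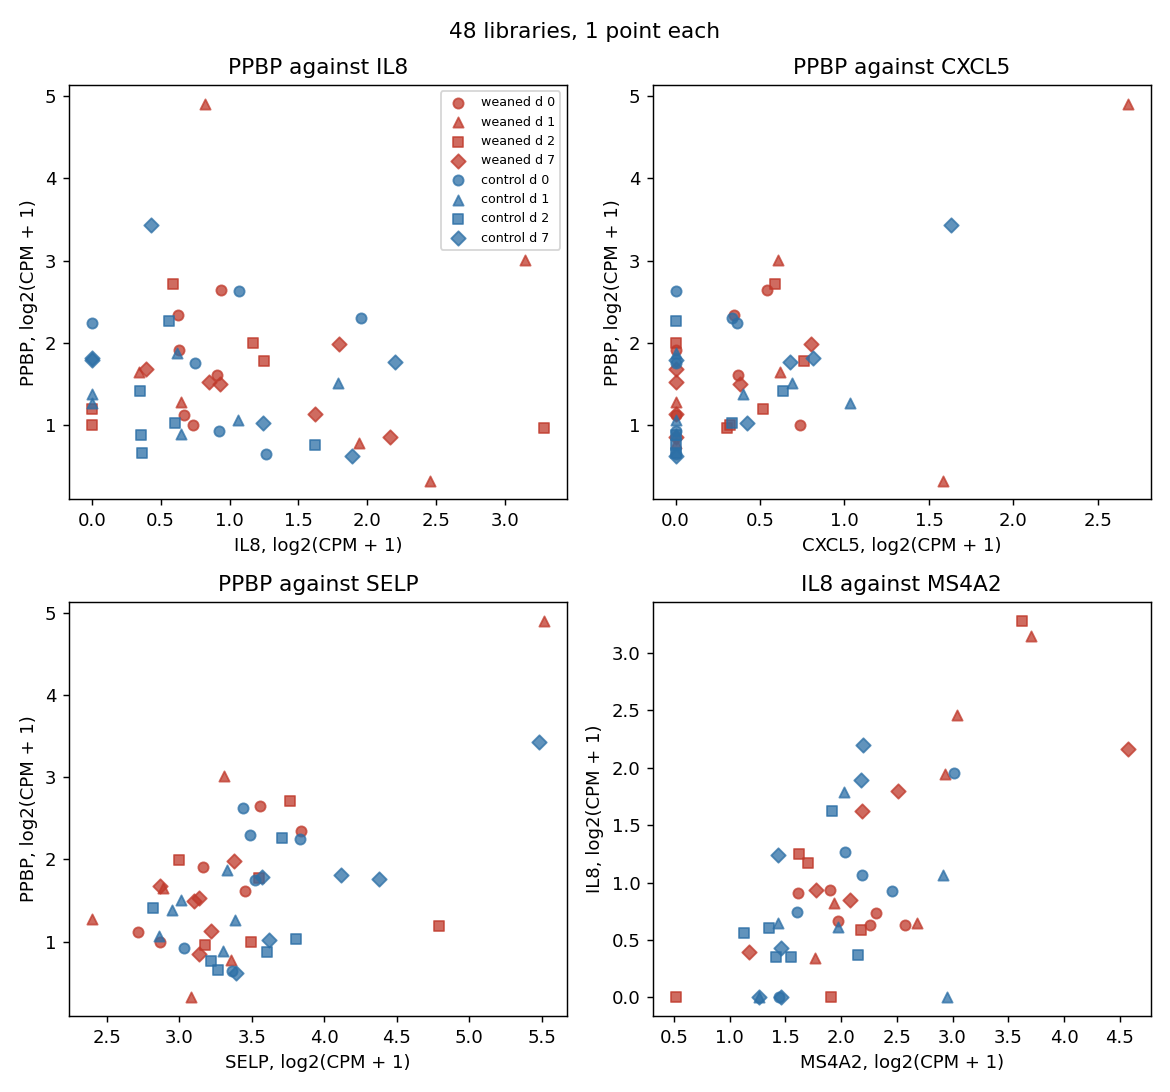
Levels on the log2(CPM + 1) scale (both axes) in the 48 libraries, with weaned calves in red, control calves in blue and a marker shape per day: PPBP against IL8, CXCL5 and SELP, and IL8 against MS4A2. The point with the highest PPBP, at 29.0 CPM, is calf 1769 on d 1, which is also highest in CXCL5 and SELP but in the middle for IL8.

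Some cell type markers were also high in some of these libraries, and others were low. In blood samples, fewer cells of a type and less RNA per cell cannot be told apart from RNA alone. The study also counted blood cells, and on d 1 reported a higher neutrophil percentage and fewer platelets in weaned than in control calves. Those were means over more calves than had libraries, and their relation to the chemokine levels was not tested. Of 17 platelet markers 4 had a symbol, namely PPBP, GP5, SELP and THBS1. In the library of calf 1769 on d 1, SELP was first of 48, at 174 counts, and the platelet glycoprotein GP5 ranked 3 of 48, at 8 counts, whereas THBS1, also made by monocytes, ranked 16 of 48. The summed level of the 3 platelet markers other than PPBP, of which THBS1 gave most, was 77.5 to 248 CPM in weaned and 45.3 to 192 CPM in control calves on d 1, and none of the 3 was at 0 in a whole group. The same library was first of 48 for ALAS2 at 111 counts, and first for the T and NK cell marker GZMA at 126 counts. The neutrophil marker PGLYRP1 ranked 44 of 48 in it, at 13 counts, the lowest of the 6 weaned calves on d 1. Of the eosinophil and basophil markers IL5RA and FCER1A were also lowest of the 6, while MS4A2 and CPA3 ranked 5 and 3 of the 6. The 3 identified erythroid markers summed to 65.3 CPM in that library, the highest of the 6 weaned calves on d 1 against a median of 9.83 CPM. SLC4A1, the least abundant of them, was at 0 in all 6 weaned calves on d 1. Of 10 epithelial and fibroblast markers the 3 collagen genes COL1A1, COL1A2 and COL3A1 had a symbol. They were highest of the 6 weaned calves on d 1 in that library, at 101, 67.6 and 58.6 CPM, and ranked 6, 4 and 2 of 48. Their sum ran from 0.800 to 227 CPM in weaned and from 0 to 183 CPM in control calves on d 1, and none was called in any comparison. GZMA, at 2.13 to 32.4 CPM in weaned and 4.56 to 18.5 CPM in control calves on d 1, fell in control calves from d 0 to d 7 (log2 change -1.94, SE 0.29, adjusted p = 0.0222), a call not made with flowcell as a block (adjusted p = 0.0623) or in 1 fit of all libraries (adjusted p = 0.0754). The part of these cells in the PPBP and CXCL5 values was not tested.

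Beside IL8, 4 of 8 eosinophil and basophil markers had a symbol, IL5RA, FCER1A, MS4A2 and CPA3. They summed to 116 CPM in calf 1758 on d 2, the highest of that group, against a weaned median of 32.5 CPM and control values of 12.7 to 51.3 CPM on d 2. On d 1 their sum ran from 29.6 to 65.9 CPM in weaned and from 20.9 to 62.3 CPM in control calves, with medians of 53.5 and 27.1 CPM, and the weaned median on d 0 was 24.05 CPM. From d 0 to d 1 in weaned calves all 4 had a higher fitted level and 3 an unadjusted p under 0.05, beside 10.4% of all genes, so that their sum was higher in the comparison in which the IL8 mean was higher. None of the 4 was called in any comparison. Their part in the IL8 values was not tested. Of 18 neutrophil markers only PGLYRP1, a granule protein, had a symbol, and it was at 6.29 ± 1.68 CPM in weaned and 11.1 ± 12.1 CPM in control calves on d 1 (log2 change -0.83, SE 0.49, adjusted p = 0.959). No monocyte or B cell marker had a symbol, so the label of total leukocytes could be checked against few defining genes.

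The rest of the chemokine pathway was seen only in part. Of 8 ELR type CXC ligands the 3 members had a symbol, of 3 receptors and decoys for them none, and of 9 other CXC ligands only CXCL10, the interferon-induced attractant of T cells. CXCL10 was at 8.24 ± 6.63 CPM in weaned and 14.8 ± 12.3 CPM in control calves on d 1. Its log2 change, -0.87 (SE 0.58, adjusted p = 0.959), had the opposite sign to those of the members. It fell in control calves from d 0 to d 7, by a log2 change of -1.59 (SE 0.42, adjusted p = 0.0263), which was not called with flowcell as a block (adjusted p = 0.0706) or in 1 fit of all libraries (adjusted p = 0.102). Since symbols were known only for genes the study had listed from these samples, counts over such lists are not independent evidence of a direction.

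Of 22 CC and XC chemokines 6 had a symbol and none was called on any day. On d 1 the median log2 change of the 6 between weaned and control calves was 0.90, against 0.00 over all genes, and 2 had an unadjusted p under 0.05. The share of all genes under 0.05 on d 1 was 3.01%. The 2 were XCL2, an attractant of dendritic cells, with 9 against 1 counts (2.32, SE 0.94, adjusted p = 0.959), and CCL24, an eosinophil attractant, with 22 against 6 counts (1.52, SE 0.71, adjusted p = 0.959). Of the monocyte attractant CCL2 there were 17 counts in the weaned libraries, of which 10 were from calf 1769, and 6 in the control libraries. On the later days the median of the list had the other sign, -0.42 on d 2 over 5 genes tested and -1.78 on d 7 over 4, where all 4 were lower in weaned calves and 3 had an unadjusted p under 0.05, beside 25.5% of all genes. CCL4 was at 20.8 ± 16.5 CPM in weaned and 20.6 ± 6.95 CPM in control calves, with the highest of the 48 libraries again that of calf 1769 on d 1, at 54.2 CPM.

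Among 22 genes of the signals that switch IL8 on, IL1A, FOS and FOSB had a symbol. FOSB, a subunit of the AP-1 transcription factor, was at 48.1 ± 11.95 CPM in weaned and 29.7 ± 10.8 CPM in control calves on d 1, with a log2 change of 0.68 (SE 0.24, adjusted p = 0.959), and FOS at 172 ± 66.7 and 139 ± 73.3 CPM (0.28, SE 0.33, adjusted p = 0.959). In control calves from d 0 to d 7 FOSB (1.70, SE 0.28, adjusted p = 0.0222) and FOS (1.12, SE 0.37, adjusted p = 0.0455) rose, where IL8 differed by 0.07. With flowcell as a block FOSB was still called (adjusted p = 0.0186) and FOS was not (0.68, adjusted p = 0.213), nor was FOS with DESeq2 (adjusted p = 0.0551), filterByExpr (adjusted p = 0.0524) or 1 fit of all libraries (adjusted p = 0.0754), and with calf as replicate block its change was 0.96, under 2-fold. The cytokine IL1A, or interleukin 1 alpha, gave 16 counts over the weaned libraries of d 1 and 11 over the control libraries. In the library of calf 1773 on d 1, second of 48 for IL8, FOS was second of 48 at 272 CPM, and in that of calf 1758 on d 2, first for IL8, it ranked 26 of 48 at 134 CPM.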

How the data were processed

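Per the labels and the methods of the study, poly(A) RNA of total leukocytes, left after lysis of red cells, was sequenced as single reads. The authors aligned the reads to Btau4.0 with Bowtie 0.12.7, allowing no mismatch, dropped reads that aligned more than once, left 1 read per genomic position and deposited raw counts per Ensembl gene (HTSeq 0.4.6p2), without normalisation. Keeping 1 read per position caps the counts of short transcripts, reads of near-identical family members are lost, and the use of strand is not given in the sources used here. Total counts were 1662995 to 4256011 per library, so that 3 counts are 0.686 to 2.08 CPM; intervals cover counting error only.

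The counts were analysed with edgeR 4.0.16 in R 4.3.3 (TMM; a summed count of 10 or more in the fit; quasi-likelihood F-test; Benjamini-Hochberg over all genes tested). Treatments were compared on each day and later days with d 0 within a treatment; the 3 interactions had calf as a term. SE is the log2 change divided by the square root of F. Levels are CPM with TMM factors over the 48 libraries; permutation tests of log2(CPM + 1) are exact and two-sided, and the smallest p they allow is 0.00216 for calf labels and 0.0312 for signs within calves. Computations used Python 3.11.15, numpy 2.4.6, pandas 2.3.3, scipy 1.17.1 and matplotlib 3.10.9. The procedures were tested on simulated data, in which the changed genes had more counts than the members. The simulation therefore does not show how well changes in the members would be found.

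The members, lists and tests were chosen with earlier results of these data known. Named genes were the members, all identified CXC ligands and receptors, up to 4 genes of every other list by the smallest p on d 1 and any called gene, the 3 marker genes of highest level in a list, and the 5 named genes most like each member; ranks in single libraries were looked up after the high libraries were seen. The platelet list holds a marker that is not reported here, and it was left out of the counts and sums. Symbols came from the study's human ortholog tables, which name 643 of the identifiers. Alternatives were RLE size factors, no filter or filterByExpr, the DESeq2 1.42.0 Wald test, an exact test with a common dispersion, 1 fit of all libraries, calf as replicate block, flowcell as a block, leaving out each calf and a pseudocount of 0.25. Repeated libraries were paired by calf, as the labels give. Deviations from the group means over 11071 genes correlated between d 0 and a later day of the same calf with means of 0.219 to 0.495 by treatment and day. Libraries of the same group differed by 2.79 to 57.9 times the counting noise (120 pairs), more than counting error alone would give. Libraries of different groups were not compared in this way.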

Additional observations from a re-analysis of the deposited data

Results flagged for a closer look

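In 7 of the 24 groups of 6 calves (8 groups, 3 genes) the highest calf stood apart from the rest, the gap to the next calf being over 0.625 of the range of the group, where chance would give about 1 group in 20 if the values were normal. CPM from so few counts are not, so the 7 cannot be read against that share. For PPBP these were weaned calf 1769 on d 1 (0.763 of the range, 29.0 CPM against 7.07 CPM for the next calf), control calf 1789 on d 7 (0.787, 9.80 against 2.52 CPM) and control calf 1763 on d 2 (0.664, 3.79 against 1.65 CPM). For IL8 they were weaned calf 1758 on d 2 (0.842, 8.73 against 1.38 CPM) and control calf 1759 on d 2 (0.865, 2.08 against 0.519 CPM), the latter from 3 counts in the shallowest library. For CXCL5 they were weaned calf 1769 on d 1 (0.631, 5.40 against 1.99 CPM) and control calf 1789 on d 7 (0.641, 2.10 against 0.755 CPM). The libraries of calf 1769 on d 1 and calf 1789 on d 7 stood apart for both PPBP and CXCL5.

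The change of CXCL5 from d 0 to d 7 differed between the treatments in the exact permutation test, by -0.61 on the log2(CPM + 1) scale (p = 0.0346, 1 of 42 tests), with 4 of 6 control calves and 1 of 6 weaned calves higher on d 7 than on d 0. Leaving out any of 9 of the 12 calves took the exact permutation p over 0.05, and it was 0.0714 without control calf 1789 (difference -0.45). Calf 1789 had 6 of the 11 control counts of d 7, every other library of d 0 and d 7 was at 3 counts or fewer, and edgeR gave an adjusted p of 0.157.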

How the results depend on the processing

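Depth limits these results, since the 3 genes had 72 to 487 counts over the 48 libraries. None of them passed filterByExpr in the 10 comparisons of groups, and it therefore gave no value. edgeR's exact test with a common dispersion called 5 changes that the F-test did not, with log2 values of 1.78 (IL8) and 2.04 (PPBP) between the treatments on d 1, and of 1.95 (IL8), 2.19 (CXCL5) and 1.22 (PPBP) from d 0 to d 1 in weaned calves (40 and 64 genes called in all, against 0 by the F-test). The exact test was run with 1 dispersion for all genes and did not use the spread of each gene between calves. Whether this accounts for the 5 calls was not tested. No other alternative led to a call of a chemokine. In control calves from d 0 to d 7 the F-test called 516 genes, 11 with flowcell as a block and 1 in 1 fit of all libraries. The sign of the IL8 change between treatments on d 2 turned with flowcell as a block (-0.52). That of PPBP on d 0, near 0, turned with RLE size factors (-0.0083), DESeq2 (-0.017), all 48 libraries in 1 fit (-0.0051) and flowcell as a block (-0.11). With calf as replicate block the change from d 0 to d 1 in weaned calves was 1.70 for IL8, 0.66 for PPBP and 2.11 for CXCL5 (adjusted p 0.153, 0.397 and 0.161), and IL8 on d 2 was 0.81; the block changed no call of the 3 genes. The interaction of d 1 without the replicate block was 2.51 for IL8. With each calf left out, none of 298 edgeR values was called. The exact permutation p of the CXCL5 interaction on d 7 was over 0.05 without any of 9 of the 12 calves (0.0152 to 0.0736 over all 12; difference -0.77 to -0.45, the latter without calf 1789), and that of IL8 on d 1 was under 0.05 without calf 1809 (0.0455; difference 0.77 to 1.39). The sign turned in 7 results. Their ranges were -0.31 to 0.28 for PPBP between treatments on d 0 and -0.99 to 0.053 on d 7, -0.53 to 0.49 for PPBP and -0.37 to 0.80 for IL8 in control calves from d 0 to d 7, -0.16 to 1.84 for IL8 in weaned calves from d 0 to d 2, -0.11 to 1.62 for the CXCL5 interaction on d 1, and -0.20 to 0.046 for CXCL5 over the mean of d 1, 2 and 7 minus d 0. CXCL5 gave no value where its counts were too few or none exceeded 3.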
